A study of Mus musculus with 6 samples.

Results

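Of the 984 references that collected reads in these small RNA libraries, 73 were stem-loop references: entries named for a whole microRNA (miRNA) hairpin rather than for 1 of its mature arms. They were taken by name alone, as every reference called a stem-loop in any of the 6 count tables, with a reference missing from a table set to 0. The other 911 references were mature miRNAs. The libraries came from bone-marrow-derived macrophages of male mice aged 6 to 12 weeks, 3 from ApoE-knockout animals (EKO) and 3 from wild-type animals (WT), stated to be biological replicates. Both genotypes were grown in DMEM with 10% serum, and recombinant mouse M-CSF, the growth factor that drives marrow cells to become macrophages, was added at 25 ng/mL each 2 days for 6 days. The question was how miRNA levels differ when macrophages lack ApoE, a lipid-carrying protein that they normally secrete. Apoe mRNA is not among the references, so the genotype labels could not be checked.

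A miRNA is cut from a hairpin. The nuclear enzyme Drosha releases the hairpin from a longer transcript, Dicer removes the loop, and the short strands of the stem, the 5p and 3p arms, become mature miRNAs, of which usually 1 dominates. Many mouse miRNAs exist as near-identical copies on different chromosomes, so a short read can fit several hairpins. The seed of a miRNA, its bases 2 to 8, is what mainly selects its targets.

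The hairpins below belong to members that the results discuss and to hairpins that share bases with them. They are RefSeq sequences of the GRCm38.p6 assembly matched by name, whereas the count tables were made on mm9 per the submitters' processing notes and hold no coordinates or read sequences. Each pair shows 2 hairpins, and the capitals mark the longest run of bases that both hold without a mismatch.
mir-27a: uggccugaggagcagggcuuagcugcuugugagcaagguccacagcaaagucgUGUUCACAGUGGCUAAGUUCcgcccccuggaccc
mir-27b: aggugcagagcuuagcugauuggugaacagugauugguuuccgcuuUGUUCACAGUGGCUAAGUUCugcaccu
mir-30a: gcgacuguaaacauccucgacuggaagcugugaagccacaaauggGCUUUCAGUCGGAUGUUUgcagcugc
mir-30e: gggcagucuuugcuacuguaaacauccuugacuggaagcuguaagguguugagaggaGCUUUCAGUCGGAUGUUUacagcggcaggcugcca
mir-101a: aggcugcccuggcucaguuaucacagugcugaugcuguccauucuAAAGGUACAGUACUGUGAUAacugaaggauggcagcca
mir-101b: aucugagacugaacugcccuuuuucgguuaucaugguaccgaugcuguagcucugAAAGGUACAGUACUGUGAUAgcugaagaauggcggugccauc
mir-3962: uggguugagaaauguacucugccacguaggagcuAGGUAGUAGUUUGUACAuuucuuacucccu
let-7g: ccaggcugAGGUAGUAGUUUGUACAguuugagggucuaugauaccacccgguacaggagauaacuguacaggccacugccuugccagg
let-7a-1: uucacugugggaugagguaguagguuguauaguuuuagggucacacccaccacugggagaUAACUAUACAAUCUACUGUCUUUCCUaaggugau
let-7c-2: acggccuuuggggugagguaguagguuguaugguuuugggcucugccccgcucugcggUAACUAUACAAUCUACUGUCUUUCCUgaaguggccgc
mir-21a: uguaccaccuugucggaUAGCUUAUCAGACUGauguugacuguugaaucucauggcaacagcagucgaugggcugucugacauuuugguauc
mir-21c: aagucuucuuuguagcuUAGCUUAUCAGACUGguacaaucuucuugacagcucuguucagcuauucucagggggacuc
The runs show where 2 hairpins cannot be told apart. The mir-27a hairpin (chr8:84208672-84208758, plus strand) and the mir-27b hairpin (chr13:63300712-63300784, plus strand) share 20 bases that begin 2 bases before their 3p arms and stop at the only difference between the 2 mature sequences, C19U, counted from 1 at the 5′ end of miR-27a-3p. The mir-30a (chr1:23272269-23272339, plus strand) and mir-30e (chr4:120772606-120772697, minus strand) hairpins share 18 bases that begin 1 base before the 3p arm and end before G18A, counted along miR-30a-3p. The 2 miR-101 hairpins (mir-101a at chr4:101346945-101347027, minus strand; mir-101b at chr19:29135279-29135375, plus strand) share 20 bases. That run starts 5 bases before the arm in mir-101a and 4 before it in mir-101b. The mir-3962 hairpin (chr1:194822001-194822064, plus strand) holds 17 bases of the let-7g-5p arm (let-7g at chr9:106178840-106178927, plus strand), and its own annotated mature sequence starts at the same base as the run. The let-7a-1 (chr13:48538179-48538272, minus strand) and let-7c-2 (chr15:85706603-85706697, plus strand) hairpins share 26 bases that cover the whole 3p arm, 3 bases before it and 1 after it. In the miR-21 pair (mir-21a at chr11:86584067-86584158, minus strand; mir-21c at chr8:128278148-128278225, minus strand) the 15 shared bases lie inside the arm, and miR-21a-5p and miR-21c then differ at A16G, G18A, U19C, U20A and G21A.

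Such shared runs were common among these hairpins. Of the 73, 43 were matched by name to a RefSeq hairpin. The 30 without a match included all 27 members assigned by name to the Sfmbt2 cluster, a large array of miRNA copies in an intron of Sfmbt2. A missing match by name does not show that RefSeq lacks the hairpin. Of the 43, 33 (76.7%) shared at least 16 bases with another hairpin in the table. The same held for 83 of the 482 other hairpins with a mature arm in the count tables (17.2%), and for 180 of all 1005 hairpins (17.9%). The median longest run was 20 bases for the members and 12 for the 482 others. All entries of the members held shared reads, as given below, so hairpins with long runs could be listed more readily. The comparison therefore describes the members and tests nothing. In 31 of the 33 the run overlapped a mature arm listed for that hairpin, and in 28 it also ran past an end of that arm. For let-7a-2 and mir-23b no listed arm overlapped the run, though in mir-23a the run shared with mir-23b overlaps miR-23a-3p by 18 bases. Both counts may thus be low. The 10 members with runs under 16 bases were let-7d, let-7j, mir-10a, mir-142a, mir-182, mir-21a, mir-21b, mir-21c, mir-3970 and mir-5123.

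The name of these entries invites reading them as loops, uncut precursors or other reads from outside the mature arms, but the tables hold no read positions and do not show this. What they show is sharing. They give, for each reference, the total reads and an estimated count in which a read that fits several references is divided among them. Over the 6 libraries the stem-loop references made 233 entries, and none had an estimated count above 0.5 of its total. It was exactly 0.5 in 132 entries and lower in 101, so that in every entry a read was on average divided among at least 2 references. In all 51 entries with a single read, that read was shared. Mature references differed: 3138 of 3763 entries (83.4%) had no shared read, and 0.639% of all mature reads went to other references. The tables are titled as sense reads on mature miRNAs. Whether a read that fits a stem-loop reference alone could enter them was not tested, so the lack of unshared entries may be set by the tables.

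**Figure D1:**
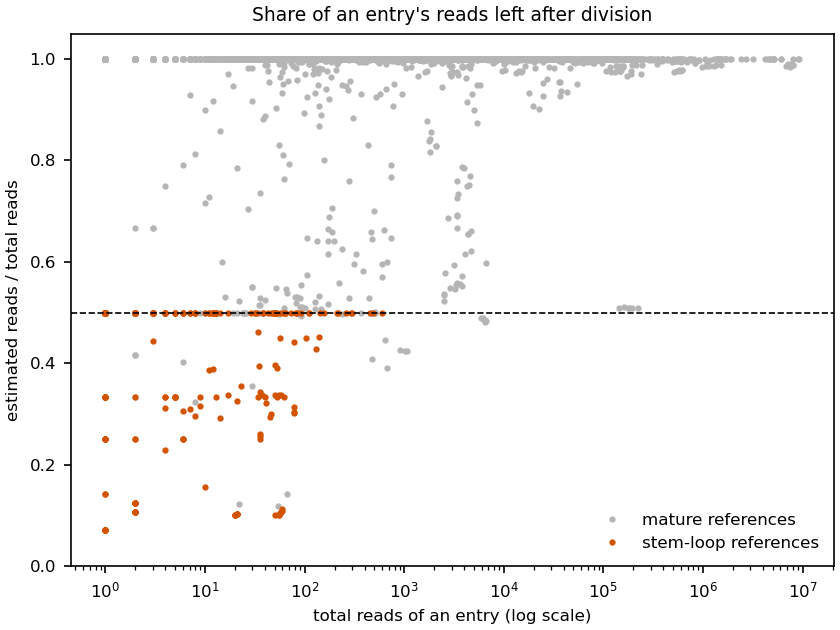
Each point is 1 reference in 1 library, with its total reads on the x axis (log scale) and the estimated reads as a share of the total on the y axis; the dashed line marks 0.5. All 233 stem-loop entries (orange) lie on or below the line, while 83.4% of the 3763 mature entries (grey) lie at 1.

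Shared reads balanced between the 2 sides of the miR-27 pair. The total minus the estimated count of a reference is the part of its reads credited to others, here called its remainder. In the miR-27 pair the remainders of miR-27a-3p and the mir-27a stem-loop together equalled those of miR-27b-3p and the mir-27b stem-loop in all 6 libraries. In EKO replicate 1, for example, 2537 plus 225 reads on the mir-27a side stood against 2755.5 plus 6.5 on the mir-27b side, 2762 each. The sums were 3292 and 4602 in the other two EKO libraries and 5820.5, 5951.5 and 7002.5 in WT. Most of the exchange was between the 2 mature arms, and the mir-27a stem-loop was the larger of the 2 stem-loops in every library.

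The same balance was sought in 10 groups of references, chosen after their values were seen and not all of them paralogs. The miR-24, miR-5123 and miR-181a groups set 1 reference against 1 other. For mir-5123 the longest run shared with another hairpin was 12 bases. Of the 60 cases, 7 had no shared read on either side, and the sums were equal in 51 of the other 53, with a tolerance of 1e-06 reads. Since the groups were picked for this pattern, the tally describes them and tests nothing. They included 16 stem-loop references. The exceptions were the miR-30a and miR-30e group in WT replicate 1, with a gap of 5.5 reads, and the miR-181a group in WT replicate 2, with a gap of 0.5. For miR-128-3p, which 2 hairpins encode, the remainder was 19.5, 0 and 0 reads in EKO and 0.5, 6 and 0.5 in WT, equal each time to the sum of the mir-128-1 and mir-128-2 stem-loops. A member's own arms could not always be the partner. In 22 of the 233 entries they had no shared read and in 24 fewer than the entry needed, whereas in 187 they had enough. The miR-101, mir-3962 and let-7 pairs printed above were not among the groups checked for balance. The partners of their shared reads were not identified.

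**Figure D2:**
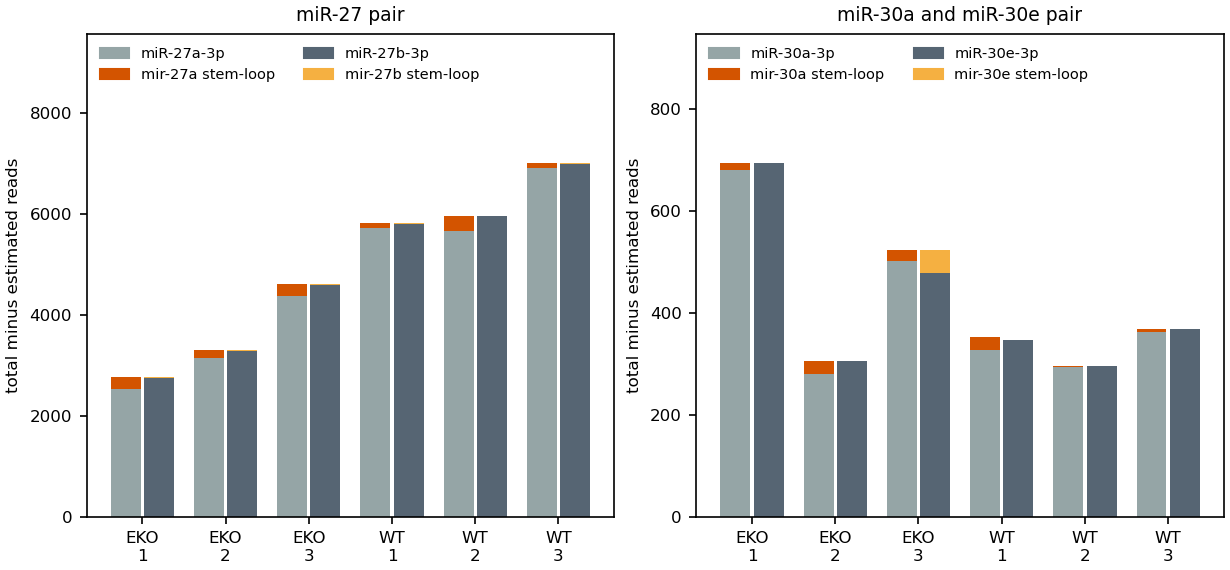
Bars give the total minus the estimated reads for each library, with the first hairpin of a pair on the left and the second on the right; grey parts are mature arms and orange parts stem-loop references. The 2 bars of the miR-27 pair are equal in all 6 libraries, and those of the miR-30 pair in 5 of 6, with a gap of 5.5 reads in WT replicate 1.

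The stem-loop references took few reads. Estimated reads over all references summed to 34652025 to 41332131 per library, PCR copies included, because the tables' molecular-barcode counts sum to 0. Reads outside these references are not in that sum. The stem-loop references had 509.1, 501.8 and 596.3 estimated reads in the EKO libraries and 520.6, 531.4 and 575.1 in the WT libraries. That was 14.69, 12.69 and 16.08 reads per 1000000 of these summed reads (RPM) in EKO and 13.54, 12.86 and 14.06 in WT. The groups overlapped: EKO averaged 14.49 ± 1.70 RPM against 13.49 ± 0.602 for WT (SD, n = 3 per genotype), a log2 ratio of 0.10. No test was run on this sum. Without its 3 most abundant members the log2 ratio was -0.16.

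More stem-loop references were listed in WT, but at very low counts. The EKO libraries listed 33, 31 and 29 of the 73, and the WT libraries listed 49, 47 and 44. Mature references showed the same order, 543, 577 and 591 in EKO against 686, 668 and 698 in WT, and the part that this played was not tested. With at least 1 estimated read required, 25, 28 and 26 remained in EKO and 35, 26 and 27 in WT, and the groups overlapped. At 3 reads or more the means were 17.3 ± 1.53 for EKO against 17 ± 4 for WT (SD, n = 3 per genotype). The Sfmbt2 cluster supplied 5, 11 and 0 of the listed members in EKO and 16, 16 and 13 in WT, and the others 25.7 ± 4.93 and 31.7 ± 1.15. Listed members of this cluster are not separate observations, because 1 read can list many of them. In WT replicate 2 a stem-loop read was divided among up to 14 references, and the 16 listed cluster members together had 0.0613 RPM. Of the 73, 26 were listed in WT alone, 15 of them from the Sfmbt2 cluster. Only 2 of these 26 ever reached 3 reads. The 5 listed in EKO alone were mir-30e, mir-21c, mir-101a, mir-466j and mir-128-2.

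**Figure D3:**
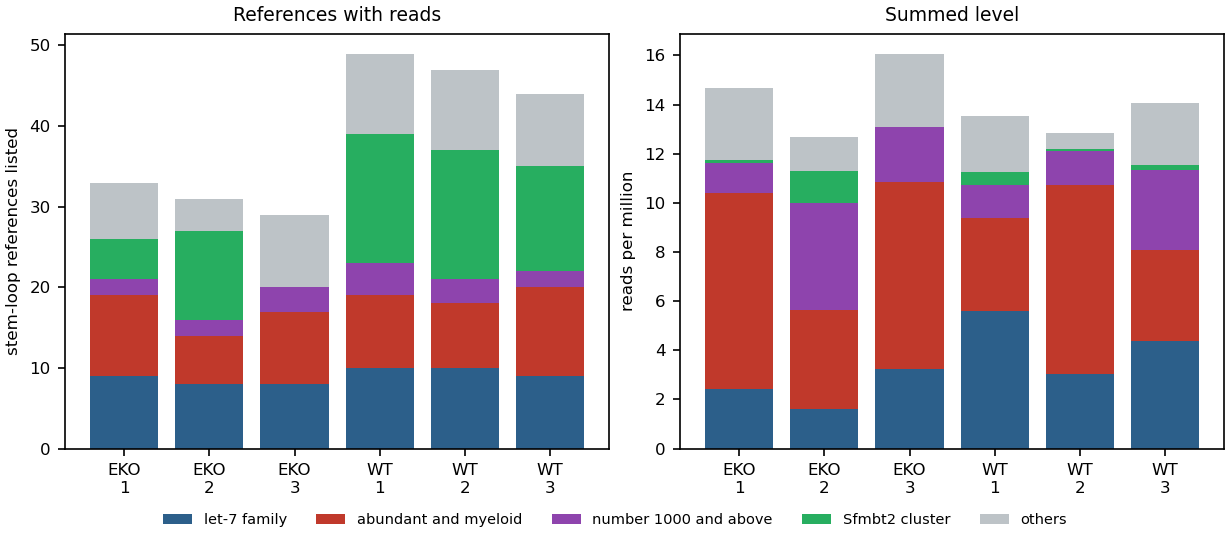
Stacked bars give, for each library, the number of stem-loop references listed (left) and their summed level in RPM (right), by list. The listed number is 29 to 33 in EKO and 44 to 49 in WT, while the summed level is 12.69 to 16.08 RPM in EKO and 12.86 to 14.06 in WT.

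The test of EKO against WT ran over all references with enough reads, 587 in all, of which 12 were stem-loop references. None of the 12 passed an adjusted p of 0.05, and neither did any of the 587 (0.0%, edgeR quasi-likelihood test, Benjamini-Hochberg adjustment). At an unadjusted p under 0.05 there were 0 of the 12 and 123 of the 587 (21%). The smallest p of a stem-loop reference was 0.258, and its adjusted p of 0.651 was the smallest of the 12 in that edgeR fit. By point estimate 4 were higher and 8 lower in EKO, 5 of the 12 changed sign under at least 1 alternative, and the median log2 change was -0.20 against -0.15 over all 587. Their standard errors ran from 0.70 to 1.88 (log2), wide next to the median of 0.66 over all references. The median was 1.76 over the 259 tested mature references averaging no more than 188.6 reads, the mean of the most abundant stem-loop reference. DESeq2 called 93 of the 564 to which it gave an adjusted p, limma-voom called 31 of 587, and edgeR called 41 of 646 without EKO replicate 3, with no stem-loop reference among them. DESeq2 gave no adjusted p for 3 of the 12, let-7d, let-7i and let-7j.

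The hairpins of the let-7 family, whose mature miRNAs accumulate as cells differentiate, made up 10 members and on average 24.3% of the stem-loop reads. Their summed level was 2.44, 1.61 and 3.22 RPM in EKO and 5.58, 3.02 and 4.36 in WT. The lowest WT library lay below the highest EKO library, so the groups overlapped. Of the 7 tested, 6 had lower point estimates in EKO and 1 a higher one. Their median log2 change was -0.37 (against -0.15 over all tested references), and none passed the test. The 7 may not be separate observations, because their reads were divided among several references. In EKO replicate 1 the let-7a-1, let-7c-1 and let-7c-2 stem-loops each had 36 total reads, and 8.98, 9.4 and 9.23 estimated reads. Whether these were the same reads is not known.

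The let-7a-1 stem-loop had 0.259, 0.523 and 0.0638 RPM in EKO and 1.46, 0.599 and 0.851 in WT. Every EKO value lay under every WT value, which held for no other tested member. Among all 587 references the groups did not overlap for 171 (29.1%), and for 103 (17.5%) with EKO lower. Among the 259 tested mature references with a mean no higher than the most abundant stem-loop reference, they did not overlap for 52 (20.1%). That set was not matched to the count of let-7a-1. The log2 fold change of let-7a-1 was -1.73 ± 1.42 (SE, edgeR adjusted p = 0.651). The let-7c-1 stem-loop had 0.271, 0.350 and 0.648 RPM in EKO and 1.21, 0.621 and 1.56 in WT, where the highest EKO value passed the lowest WT value (log2 change -1.37 ± 1.26, edgeR adjusted p = 0.692). Mature let-7a-5p and let-7c-5p differ by A19G, and the let-7a-1 and let-7c-2 hairpins share the run printed above. How reads were split among these near-identical hairpins rests on the authors' counting and is uncertain.

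The other let-7 hairpins did not follow the same order. The let-7a-2 stem-loop, a second source of let-7a, was at 0.399, 0.312 and 0.527 RPM in EKO and 0.490, 0.321 and 0.141 in WT (log2 change 0.41 ± 1.34). The let-7c-2 stem-loop was at 0.266, 0.173 and 0.635 RPM in EKO and 0.527, 0.415 and 0.322 in WT (-0.17 ± 1.34). Both overlapped between the genotypes. The let-7i stem-loop split within both groups, with 0.0433, 0.0506 and 0.620 RPM in EKO and 0.819, 0.0484 and 0.635 in WT. Its low and high libraries thus differed more than 10-fold inside 1 genotype. The let-7d stem-loop was absent from EKO replicate 2 and otherwise lay between 0.295 and 0.5 RPM. It held a single distinct read sequence in 4 of the 5 libraries that listed it. The let-7j stem-loop was highest in EKO replicate 1 (0.707 RPM) and absent from EKO replicate 3.

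The mir-27a stem-loop, whose mature miR-27 is abundant in macrophages and acts on lipid-handling genes, was the most abundant member by count. It had 6.49, 3.77 and 6.55 RPM in EKO and 2.77, 7.23 and 2.66 in WT. The highest value was in WT replicate 2, so the groups overlapped (log2 change 0.44 ± 0.70, edgeR adjusted p = 0.861). Its share of all stem-loop reads ran from 19% in WT replicate 3 to 56.3% in WT replicate 2. Its reads came in 13 to 17 distinct sequences per library. Next to the shared reads of miR-27b-3p, its estimated reads came to 8.17%, 4.53% and 5.30% in EKO and 1.84%, 5.03% and 1.56% in WT. These 2 references do not balance alone, since the equality above is between the sums of both sides.

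The mir-27b stem-loop had far fewer reads than mir-27a, although its own arm miR-27b-3p was the more abundant of the 2. It had 0.188, 0.139 and 0.512 RPM in EKO and 0.793, 0.145 and 0.464 in WT. The values overlapped (log2 change -0.68 ± 1.42). Mature miR-27b-3p stood at 13980 to 18490 RPM in EKO and 19960 to 26540 in WT, and miR-27a-3p at 3021 to 5007 and 4376 to 5645.

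The mir-30a stem-loop, whose 5p arm belongs to a broadly expressed family, had 0.418, 0.658 and 0.580 RPM in EKO and 0.676, 0.0363 and 0.159 in WT. WT replicate 1 exceeded all EKO libraries (log2 change 0.96 ± 1.48). Its paralog mir-30e was listed in EKO alone, at 0.0144, 0.0126 and 1.24 RPM, and 97.9% of its reads came from replicate 3. In that library the stem-loop read 92 times in total with 4 distinct sequences, while miR-30e's own mature arms did not stand apart, at 2209 RPM against 2061 to 2622 in the others.

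The mir-101b stem-loop had 1.18, 0.721 and 0.984 RPM in EKO and 1.43, 0.206 and 1.74 in WT, on 2 or 3 distinct sequences per library. WT replicate 2 was the low value and the other two WT libraries the highest (log2 change -0.15 ± 1.27). The mir-101a stem-loop was listed only in EKO replicate 1, with 24.5 estimated reads on 1 distinct sequence.

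The mir-3962 stem-loop was the only member listed in all libraries whose reads outnumbered those on its own mature arm. It had 1.18, 3.73 and 2.10 RPM in EKO and 1.09, 1.34 and 3.21 in WT, with overlap (log2 change 0.35 ± 1.01). Its arm, miR-3962, was at 0.476, 0.316 and 0.849 RPM in EKO and 0.741, 1.13 and 1.15 in WT. As printed above, that arm carries 17 bases of let-7g-5p. Whether reads were shared between the mir-3962 stem-loop and let-7g-5p was not tested. The reads came in 3 to 5 distinct sequences per library.

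**Figure D4:**
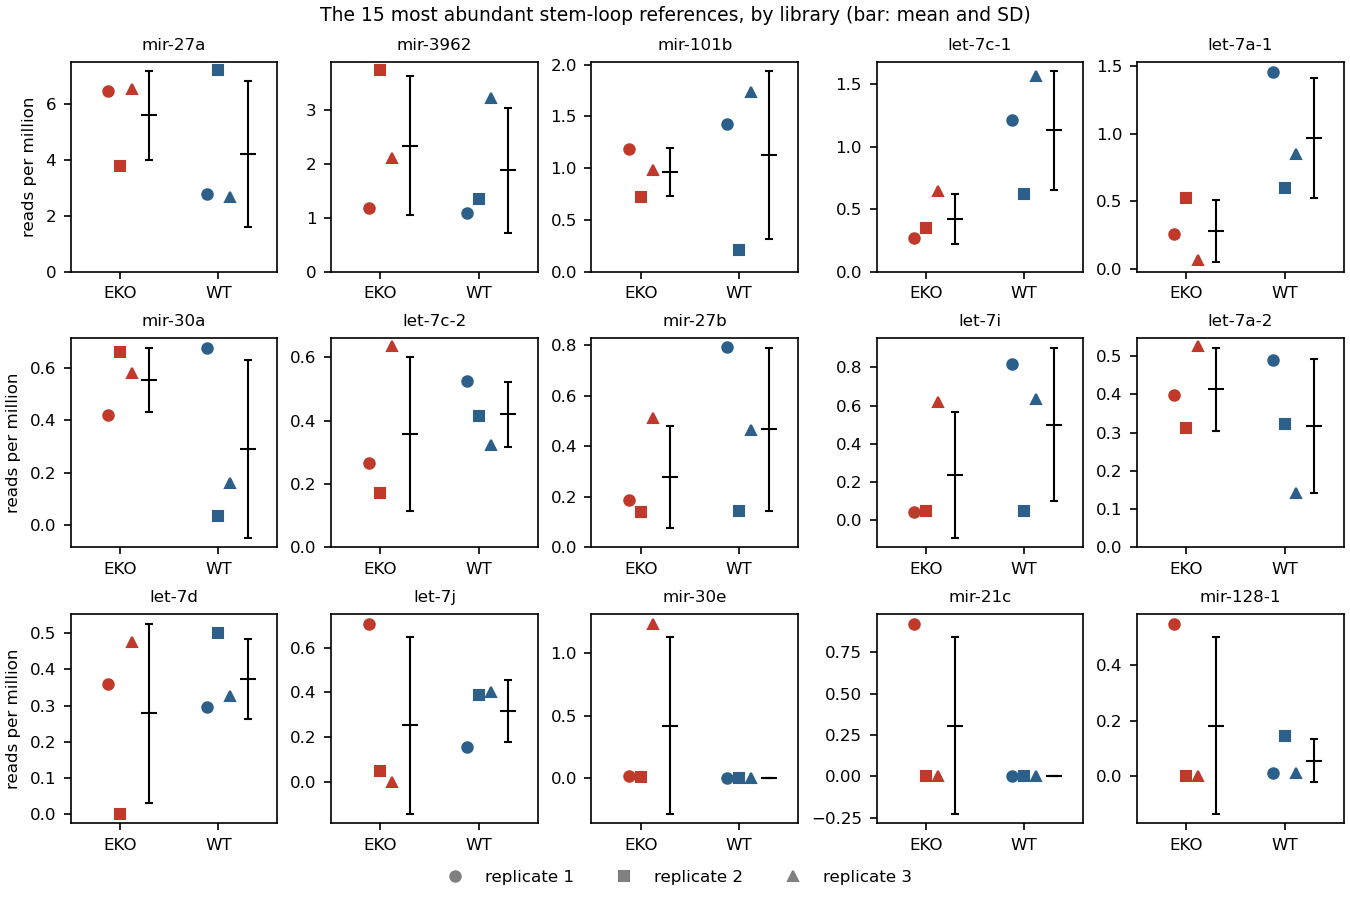
Points give the level in RPM of the 15 most abundant stem-loop references in each library (circle, square and triangle for replicates 1, 2 and 3), and black bars the mean and SD of 3 libraries; each panel has its own y axis. Only let-7a-1 among the 12 tested members has EKO values all under the WT values, and mir-30e and mir-21c rest almost wholly on 1 library.

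Several members rested on a single library. Of the 73, 23 were listed in 1 library only, and for 47 at least 50% of the reads came from 1 library. The mir-21c stem-loop had 32 estimated reads in EKO replicate 1 on 2 distinct sequences and none elsewhere. There the remainders of miR-21a-5p (48.5) and the mir-21a stem-loop (3) equalled those of miR-21b, miR-21c and their stem-loops (51.5). The mir-1843b stem-loop had 87.3% of its reads in EKO replicate 2, and the let-7e stem-loop 97.0% in WT replicate 1. The mir-128-1 stem-loop had 0.548 RPM in EKO replicate 1, none in the other two EKO libraries, and 0.0130, 0.145 and 0.0122 in WT. The let-7e, mir-101a, mir-128-2 and mir-1843b stem-loops were named after their values were seen.

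Most other members were near the limit of what 1 read can show. No more than 14 of the 73 averaged at least 5 estimated reads, 35 averaged under 1, and 20 never reached 1 in any library. The 27 Sfmbt2 cluster members, none of them tested, together had 0.125, 1.31 and 0 RPM in EKO and 0.512, 0.0613 and 0.230 in WT. EKO replicate 2 held most of this: the mir-466b-1 stem-loop had 59 total reads there but 6.66 estimated reads. The list of abundant and myeloid miRNAs, such as miR-21, miR-27 and miR-146, had 14 stem-loop members, 2 of them tested, with 1 higher and 1 lower. The miR-17-92 type polycistrons had 1, mir-92a-2, seen only in WT replicate 3. Hairpins processed by other routes, such as mir-451, had none. The 5 members with higher registry numbers, mir-3962, mir-1843b, mir-3970, mir-5123 and mir-6395, took 16.6% of the stem-loop reads on average.

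Set against their own mature arms, stem-loop reads varied over several orders of magnitude. Own arms are all mature references of the same precursor name, with the copy number dropped where the arm has none. Copies such as let-7a-1 and let-7a-2 thus both count let-7a-5p, and their ratios do not isolate 1 hairpin's product. Counts were compared without regard to length. The ratio could be formed in all 6 libraries for 14 members. It was lowest for let-7i, at 0.214 to 4.64 stem-loop reads per 1000000 reads on the let-7i arms, which were at 176600 to 206000 RPM. It was 695 to 5120 per 1000000 for mir-101b, 365 to 1130 for mir-27a and 7.09 to 35.7 for mir-27b. Across the 73 members the mean stem-loop level and the mean level of the own arms had a Spearman rho of 0.46, and 0.44 over the 38 averaging at least 1 read. These points share libraries and, for many members, mature arms. This holds in the let-7 family and among the mir-466b copies, which all had the same own-arm levels.

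Between genotypes the ratio did not move in 1 direction. It was higher in EKO for 7 of the 14 members and lower for 7, with a median difference of 0.10 (log2), which was -0.51 without WT replicate 2. The groups did not overlap for 3, all lower in EKO: let-7a-1 (difference -1.90), mir-146b (-1.62) and let-7c-1 (-1.50). As a yardstick, the ratio of the 5p to the 3p arm did not overlap between the genotypes for 28 of 79 precursors (35.4%). For mir-146b, whose mature miRNA restrains inflammatory signalling, the counts were 0.5, 1 and 1 reads in EKO and 3.5, 1.5 and 4 in WT.

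**Figure D5:**
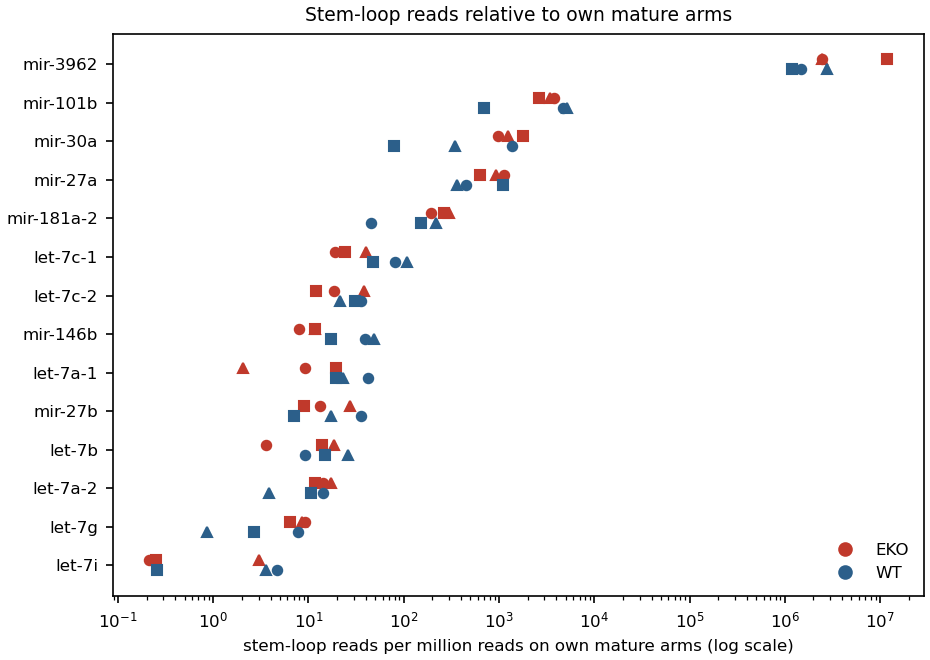
Points give stem-loop reads per 1000000 reads on the member's own mature arms (x axis, log scale) for the 14 members listed in all 6 libraries; colour gives genotype, and circle, square and triangle the replicates 1, 2 and 3. The ratio spans 0.214 for let-7i to over 1000000 for mir-3962, and within most members the genotypes overlap.

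The number of distinct read sequences differed among the members. In 102 entries with at least 10 total reads the median was 4 distinct sequences, and it was also 4 for mature references of like count in the same library. Fewer than like mature references were seen in 41 entries, the same number in 14 and more in 47. The pooled medians hide members that went opposite ways. Of the 14 members with at least 3 such entries, let-7a-1, let-7a-2, let-7c-1, let-7c-2 and mir-27b had more distinct sequences than like mature references in each of their entries. The let-7d and mir-3962 stem-loops had fewer in each of theirs, mir-3962 with 3 to 5 against medians of 5 to 17. A single distinct sequence carried 15 of the 102 entries.

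As a check of the cell type, mature miRNAs on a list of macrophage and myeloid markers summed to 143000 to 171000 RPM in EKO and 216000 to 229000 in WT. Nearly all of this was miR-21a, which many cell types express, at 137600 to 164400 RPM in EKO and 209800 to 223100 in WT. The other 8 references of the list summed to 5402 to 6847 RPM in EKO and 5489 to 6106 in WT, and overlapped. Lists for other cell types were low: lymphoid markers 2.60 to 6.71 RPM, megakaryocyte or endothelial markers 64.6 to 73.1 in EKO and 76.3 to 79.9 in WT, stromal markers 77.5 to 118 and 184 to 227, and muscle, liver and neuron markers 105 to 160 and 48.2 to 62.1. Erythroid (127 to 177) and epithelial (133 to 194) markers overlapped. The part of these differences in the stem-loop values was not tested.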

How the data were processed

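Each library had 1 deposited table, titled as sense reads on mature miRNAs. Per the file headers it gives, for each reference, the number of distinct read sequences and the total read count (counts), and an estimated count in which multi-mapping reads are divided, as the authors deposited them. A molecular-barcode column sums to 0, so PCR copies were not removed and precision figures cover reads, not molecules. The build was mm9 (submitters' processing notes). Any aligner or counter was not given in the sources used here. RNA came from RNeasy Mini columns and libraries from an NEB small RNA kit, per the labels.

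Levels are estimated counts per 1000000 estimated reads summed over all references of the library. EKO was set against WT over all 984 references with edgeR 4.0.16 (R 4.3.3): estimated counts rounded to whole numbers, filterByExpr, TMM, and the quasi-likelihood test with a Benjamini-Hochberg threshold of 0.05. The standard error is the log2 fold change divided by the square root of F. The fits were also run on simulated counts, and no outcome of that run is given or used here. DESeq2 1.42.0, limma-voom 3.58.1, other scalings, filters, total counts, a replicate block, and each library left out in turn served as alternatives. Leaving out libraries for the number detected was chosen after seeing the data.

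Members named are those tested, the 15 with the highest mean RPM, the 3 highest and 3 lowest ratios to own arms and the 3 smallest p per direction with non-overlapping groups (the last 2 among members averaging at least 5 reads), with exceptions marked or given by count. Members and lists were chosen with earlier results of these data known. Hairpins came from RefSeq by name, and a shared run is the longest exact match, of any length, to another hairpin, with 16 bases as the minimum for the count of hairpins with long runs.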

Additional observations from a re-analysis of the deposited data

How the results depend on the processing

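No stem-loop reference was called by edgeR as described or under any of the 14 alternatives, with or without a replicate block, though DESeq2 gave 3 of the 12 tested no adjusted p. Over all references the count called was 0 by edgeR as described, 93 with DESeq2, 31 with limma-voom, 48 with no low-count filter (964 tested, 54 of them stem-loop references) and 59 with a replicate block, and between 0 and 41 when each library was left out, the 41 without EKO replicate 3. The cause was not tested. Same-numbered EKO and WT libraries did not deviate together (r = -0.10, -0.04 and -0.02 for numbers 1, 2 and 3). With 3 libraries per genotype this cannot exclude pairing, and whether the numbers pair the samples is not known.

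The estimates of 7 of the 12 tested members kept their sign in all 14 alternatives. The let-7c-2 stem-loop reversed to 0.08 with total read counts, and the mir-101b stem-loop to 0.24 with limma-voom and 0.25 with a replicate block. Leaving out each library gave -0.86 to 0.15 for let-7c-2, -0.99 to 0.20 for let-7d, -3.45 to 0.36 for let-7j, -0.64 to 0.28 for mir-101b and -0.14 to 0.92 for mir-3962. Members that kept their sign also moved widely: mir-30a (0.96) from 0.50 without WT replicate 2 to 2.52 without WT replicate 1, mir-27a (0.44) from 0.17 without WT replicate 3 to 1.13 without WT replicate 2, mir-27b (-0.68) from -1.42 without EKO replicate 3 to -0.07 without WT replicate 1, let-7i (-1.01) from -3.06 without EKO replicate 3 to -0.42 without WT replicate 1, and let-7a-2 (0.41) from 0.06 without WT replicate 3 to 0.86 without WT replicate 1. The ranges were -2.51 to -1.24 for let-7a-1 and -1.80 to -1.11 for let-7c-1. The cause was not tested.

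The summed level (log2 ratio 0.10) was -0.16 without the 3 most abundant members and 0.02 to 0.19 with each library left out. The difference in number detected, -3, became -15.7 with total read counts, where any read counts as detected, and ranged from -4.67 to -0.17 with each library left out. The median log2 difference of the ratio to own arms, 0.10, ranged from -0.51 to 0.43 with each library left out, the lowest without WT replicate 2. At these counts the standard errors were 0.70 to 1.88 (log2), and no tested member's difference, let-7a-1 included, was distinguishable from the spread between replicates.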
